A study of Mus musculus with 9 samples.

Results

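Cxcl5 (ENSMUSG00000029371), Il24 (ENSMUSG00000026420) and Prl2c3 (ENSMUSG00000056457) encode secreted factors and were higher in 6DT1 mouse mammary tumor cells after knockdown (KD) of Resf1. They were 3 of the 5301 genes in the expression table, and all 3 were found in all 9 libraries. They were chosen by their rise over the control in both KD groups, so that rise is described below and is not tested. The 6DT1 line was derived from an MMTV-Myc mammary tumor and is syngeneic to FVB/NJ mice. All groups carried a lentiviral shRNA construct and were kept under puromycin. The shControl group carried a scramble hairpin, the shH4 group carried the H4 hairpin against Resf1, and the shH6 group carried the H6 hairpin. Each group held 3 libraries of total RNA, made from dishes of 1 transduced line seeded at equal density. The hairpin and the transduced line therefore cannot be told apart, and p-values measure the spread between dishes only.

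Cxcl5 is a chemokine of the CXC class that recruits neutrophils through the receptor Cxcr2, as its neighbour Cxcl1 also does. Il24 is a cytokine of the IL-10 family that signals through the IL-20 receptors and the JAK-STAT pathway. Prl2c3 belongs to the proliferins, prolactin-like hormones that are best known from trophoblast giant cells of the placenta, where they are linked to the growth of blood vessels. Transcription of such chemokines is commonly driven by NF-kB, and proliferin was first known as a gene induced by serum growth factors, with AP-1 as a regulator.

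Resf1, the target of both hairpins, was at 1591, 1553 and 1610 normalized counts in the shControl libraries, at 976, 953 and 1016 in shH4 and at 1120, 1113 and 1130 in shH6. Normalized counts are reads after division by the size factor of the library. The KD libraries did not overlap with shControl. An estimated 10.5 to 19.9 M reads per library fell in the listed genes. The table was itself selected. Each of the 5301 genes changed in 1 direction with both hairpins, and each had a limma adjusted p under 0.05 when the hairpins together were set against shControl, the highest being 0.0223. Counts of genes called against shControl are therefore a description of this table. Genes outside it were not analysed here. Relative to shControl, 49.2% of the genes were called higher in shH4 and 46.5% lower, at a limma adjusted p under 0.05. In shH6, 49.1% were called higher and 46.9% lower. Scaling to the same upper quartile turned this balance, with 2041 genes higher and 2575 lower for H4 and 2133 and 2574 for H6. Genes called higher in both hairpins made up 47.2% of the table.

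The sequences of the H4 and H6 hairpins, as the labels give them, are shown because the members rose with both. Capitals mark the seed, bases 2 to 8 counted from the 5′ end.
H4: tTTCGATTtgtaacataggtc
H6: aAACAACCaagttacctcagg
The reverse complement of H4 was found in 5 and that of H6 in 2 of the 11 Resf1 transcripts of GENCODE M21. No transcript of a member held a full match to either hairpin. The reverse complement of the H6 seed occurred 1 time in the Cxcl5 transcript and 0 times in those of Il24 and Prl2c3, and that of the H4 seed occurred 0 times in all 3.

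Prl2c3 has a near-identical relative in the table, Prl2c2, and the sequences below show why their values cannot be separated with certainty. The coding sequence of Prl2c3 is 675 bases long and differed from that of Prl2c2 at 3 bases (99.56% identity). Identity was 92.84% with Prl2c5 and 92.29% with Prl2c1, which were not analysed here. The stretch from base 111 to base 200 of the coding sequence (GENCODE M21) is shown with capitals at the 3 positions where these relatives are not all the same.
Prl2c3: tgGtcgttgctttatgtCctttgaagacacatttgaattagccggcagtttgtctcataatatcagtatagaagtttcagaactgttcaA
Prl2c2: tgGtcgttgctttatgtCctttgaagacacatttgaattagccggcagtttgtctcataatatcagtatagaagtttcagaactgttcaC
Prl2c5: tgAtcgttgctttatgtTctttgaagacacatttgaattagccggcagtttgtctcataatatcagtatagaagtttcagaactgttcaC
Prl2c3 and Prl2c2 differed at 1 position in this stretch. Of all windows of 50 bases in the Prl2c3 transcript, 78.59% were also found in another gene, and at 100 bases the share was still 62.27%. For Il24 the share was 0% at 50 bases, and for Cxcl5 it was 3.08% at 50 bases and 0% at 100. In the deposited values Cxcl5 and Il24 stood at a whole number of reads in 9 of 9 libraries within 0.02 reads, whereas Prl2c3 and Prl2c2 stood at fractions of a read in all 9. Such fractions were not limited to this family, since Resf1 had them as well.

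Cxcl5 was at 73.1, 97.2 and 85.3 normalized counts in the shControl libraries. It was at 254, 237 and 257 in shH4 and at 287, 309.5 and 276 in shH6. The lowest KD library was thus well above the highest control. All shH6 libraries lay above all shH4 libraries, but the direct comparison of the hairpins did not call Cxcl5 (limma adjusted p = 0.239). The share of all genes with such a separation was not counted. The group means were 85.2 ± 12.05 in the controls, 249.6 ± 10.7 with H4 and 291 ± 17.3 with H6 (SD, n = 3 each). These are 2.93-fold (shH4) and 3.41-fold (shH6) of the control mean. On the log2(value + 1) scale the changes were 1.55 and 1.77, each with an SE of 0.104. In reads, Cxcl5 ranged from 77 in shControl replicate 3 to 375 in shH6 replicate 1. The exact 95% Poisson interval of the first was 67.3 to 106.6 normalized counts, which covers counting error only.

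Il24 was at 58.8, 37.9 and 75.3 normalized counts in the shControl libraries. It was at 170.5, 124 and 134 in shH4 and at 127, 144 and 136 in shH6. Every KD library was above every control, while the 2 hairpins overlapped. The means were 57.3 ± 18.7 in the controls, 143 ± 24.4 with H4 and 136 ± 8.39 with H6 (SD, n = 3 each), or 2.49-fold (shH4) and 2.36-fold (shH6) of the control mean. The log2 changes were 1.34 and 1.28, each with an SE of 0.188. Il24 had the fewest reads of the members, from 32 in shControl replicate 2 to 173 in shH4 replicate 1. The interval of the lowest library was 25.95 to 53.6 normalized counts, and that of shControl replicate 3, the highest control, was 58.5 to 95.5.

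Prl2c3 was at 124, 139.8 and 139 normalized counts in the shControl libraries. It was at 529.9, 428 and 352 in shH4 and at 308, 378 and 340 in shH6. The KD libraries were again all above the controls, and shH4 replicate 3 lay inside the range of shH6. The means were 134 ± 8.88 in the controls, 437 ± 89.4 with H4 and 342 ± 35.1 with H6 (SD, n = 3 each), or 3.25-fold (shH4) and 2.55-fold (shH6) of the control mean. The log2 changes were 1.68 and 1.34, each with an SE of 0.119. Prl2c2 was low, at 9.16, 11.96 and 12.6 in shControl, at 32.8, 20.1 and 18.9 in shH4 and at 16.5, 34.3 and 22.8 in shH6. Its level was a small and variable part of that of Prl2c3, with a Prl2c2 to Prl2c3 ratio of 0.0834 ± 0.00865 in the controls, 0.0542 ± 0.00752 with H4 and 0.0705 ± 0.0188 with H6. When the values of Prl2c3 and Prl2c2 were summed, the log2 changes were 1.64 and 1.32.

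**Figure D1:**
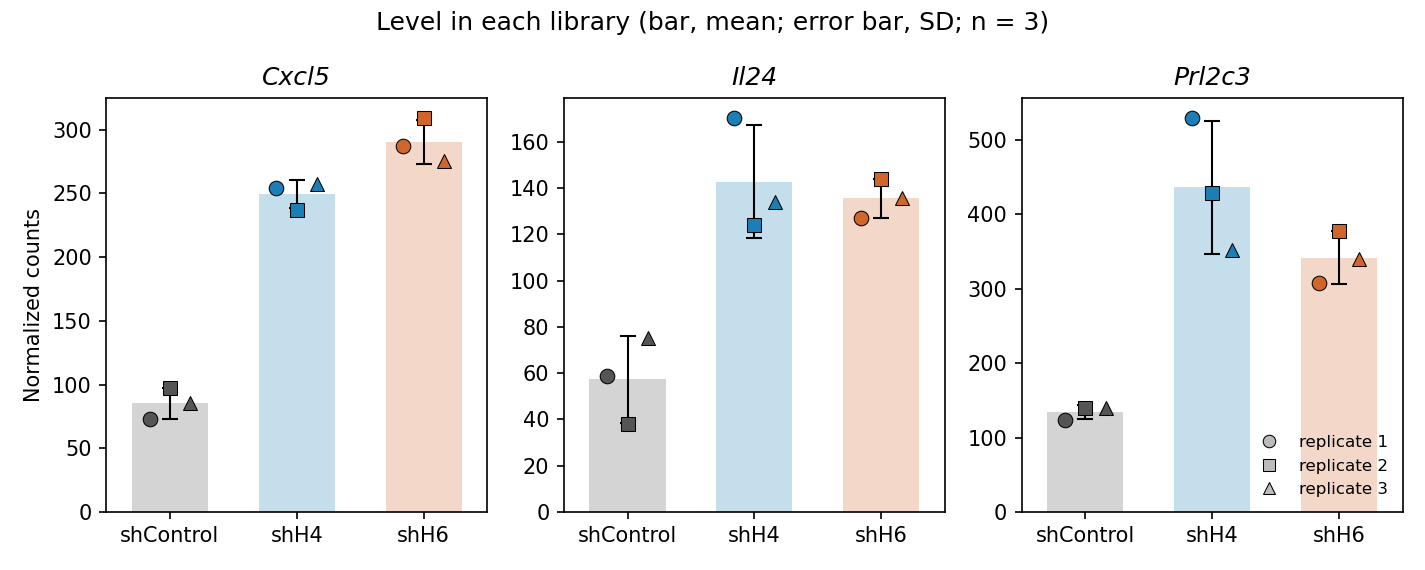
Normalized counts (y axis, linear, from 0) of Cxcl5, Il24 and Prl2c3 in the shControl, shH4 and shH6 libraries, with 1 symbol per library, bars at the group mean and error bars of 1 SD (n = 3). All 6 KD libraries lie above all 3 shControl libraries for each gene, and the spread is widest for Prl2c3 in shH4, from 352 to 529.9.

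All 6 KD libraries were above all 3 shControl libraries for the 3 members, as for 43.5% of all genes in the table. This was part of what chose them. When the 2712 genes that were higher in both hairpins were ranked by the smaller of their log2 rises, Cxcl5 was at rank 9, Prl2c3 at rank 15 and Il24 at rank 17. Cxcl5 (1.55) stood between Tmem132c (1.58) and Stbd1 (1.54). Prl2c3 (1.34) was preceded by Slc39a4, a zinc importer (1.38). Serpinb2, an inhibitor of plasminogen activators (1.29), lay between Prl2c3 and Il24 (1.28), and Marcksl1 (1.24) followed Il24. The median log2 change of all listed genes was 0.096 in shH4 and 0.088 in shH6.

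Per kilobase of transcript, Prl2c3 was the most abundant member in each group. It was at 156.7 ± 10.4 normalized counts per kb in the controls, 509.5 ± 104 with H4 and 399 ± 41.0 with H6 (SD, n = 3 each). Cxcl5 was at 54.1 ± 7.65, 158.5 ± 6.79 and 184.5 ± 10.98 per kb in the same order of groups. Il24 was at 48.5 ± 15.9, 120.9 ± 20.7 and 114.7 ± 7.10 per kb. In shControl the levels of Cxcl5 and Il24 per kb did not differ beyond their spread, whereas in both KD groups Cxcl5 was higher. Cxcl1 stood above all members, at 300.8 ± 11.5 per kb in the controls, 707 ± 29.8 with H4 and 733 ± 23.4 with H6.

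The members varied differently between dishes. The coefficient of variation of Il24 was 32.7% in the controls, 17.1% with H4 and 6.19% with H6. For Cxcl5 it was 14.1%, 4.29% and 5.95%, and for Prl2c3 6.61%, 20.5% and 10.3%, in the same order. The medians of the 950 genes with a mean of 100 to 400 normalized counts over the 9 libraries were 6.55%, 6.93% and 7.29%. The levels of Il24 (57.3) and Cxcl5 (85.2) in shControl were below that range, and that of Prl2c3 in shH4 (437) was above it.

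The direct comparison of the hairpins was not itself used to choose the members, so it was tested. It is not free of that choice. A rise with both hairpins was required, and the table held only genes with 1 direction in both. Genes on which the hairpins disagree were thus less likely to be chosen, and a lack of difference is only a description. Between shH6 and shH4, 8.26% of the genes in the table (438 of 5301) differed at a limma adjusted p under 0.05, and 0 of the 3 members were among them. At an unadjusted p under 0.05 there was 1, Prl2c3, and 21.5% of all genes in the table passed that threshold. Cxcl5 was 0.22 higher in shH6 on the log2 scale (SE 0.104, 95% interval −0.0025 to 0.44, limma adjusted p = 0.239). Il24 differed by −0.064 (SE 0.188, 95% interval −0.46 to 0.33, limma adjusted p = 0.892). Prl2c3 differed by −0.34 (SE 0.119, 95% interval −0.59 to −0.085, limma adjusted p = 0.0992). Each interval is unadjusted and covers 1 gene. The Prl2c3 difference depended on single libraries: without shH4 replicate 3 it was −0.48 with a limma adjusted p of 0.0198, and without shH4 replicate 1 it was −0.19 with a limma adjusted p of 0.404. With library weights it was −0.42 (limma adjusted p = 0.0134). The level of Resf1 was also higher in shH6, by 0.19 (SE 0.043, limma adjusted p = 0.00984).

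**Figure D2:**
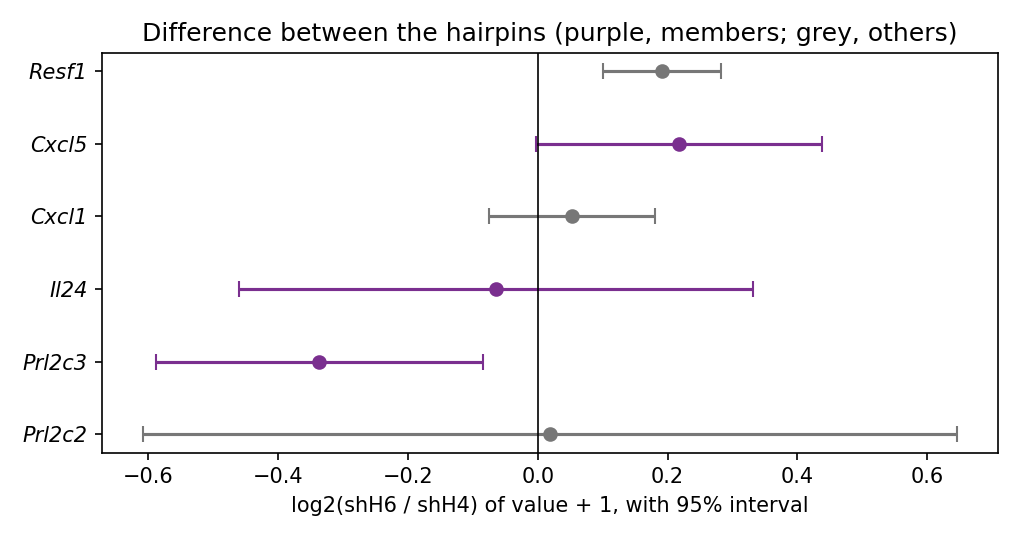
Difference between shH6 and shH4 in log2(value + 1) (x axis) with its unadjusted 95% interval, for the 3 members (purple) and for Prl2c2, Cxcl1 and Resf1 (grey). The interval of Il24 runs from −0.46 to 0.33 and that of Prl2c3 from −0.59 to −0.085, while that of Cxcl5 runs from −0.0025 to 0.44.

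Ratios within a library do not depend on the size factor. The ratio of Prl2c3 to Cxcl5 was 2.08, 1.80 and 1.37 in the shH4 libraries and 1.07, 1.22 and 1.23 in shH6, so every shH4 library was above every shH6 library. In shControl it was 1.697, 1.44 and 1.63, between the shH6 libraries and the highest shH4 library. The ratio of Il24 to Cxcl5 was 0.67, 0.52 and 0.52 in shH4 and 0.44, 0.46 and 0.49 in shH6, again without overlap. In both cases the two-sided exact permutation p between the hairpins was 0.1 (adjusted over 5 ratios, p = 0.25), which is the smallest that 3 libraries against 3 can give. The ratio of Prl2c3 to Il24 (exact permutation p = 0.2), that of Cxcl5 to Cxcl1 (p = 0.2) and that of Prl2c2 to Prl2c3 (p = 0.3) overlapped between the hairpins.

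**Figure D3:**
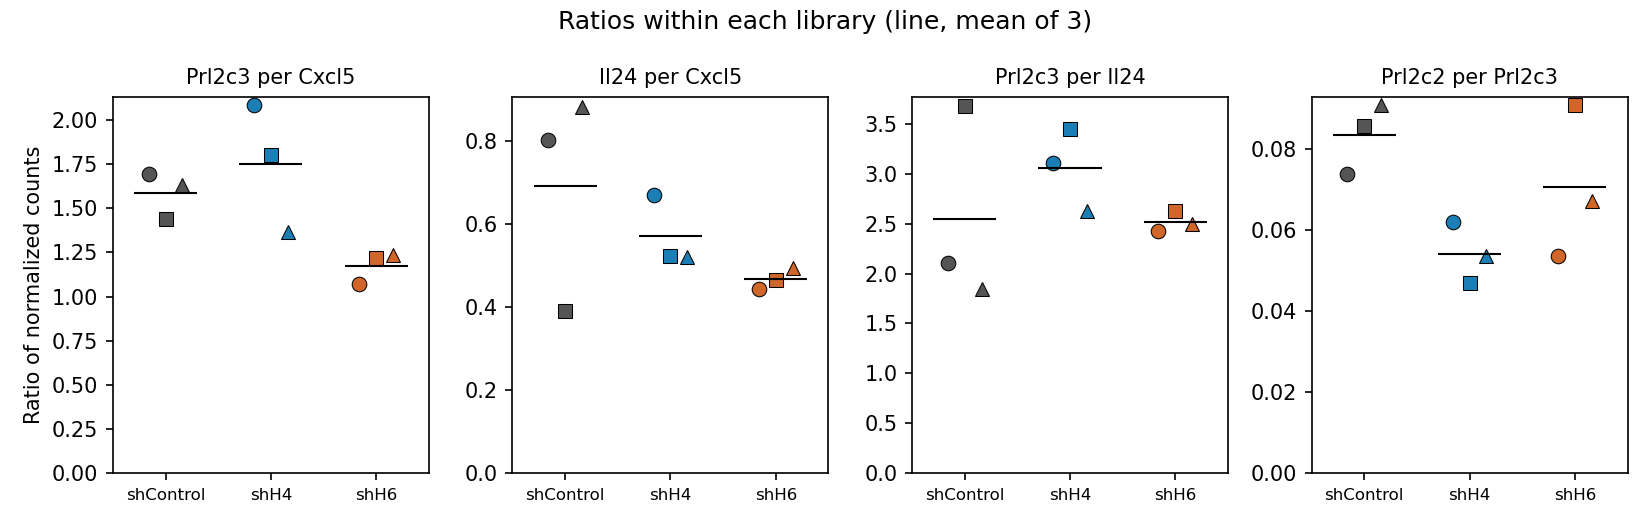
Ratio of normalized counts within each library (y axis, linear, from 0) for 4 pairs of genes in shControl, shH4 and shH6, with 1 symbol per library and a line at the mean of the 3 libraries. Prl2c3 per Cxcl5 lies at 1.37 or more in the shH4 libraries and at 1.23 or less in the shH6 libraries, whereas the hairpins overlap for Prl2c3 per Il24 and for Prl2c2 per Prl2c3.

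Among the ligands of the same class, 3 of 15 CXC chemokines were in the table. As background for the calls below, 47.2% of all genes in the table were called higher in both hairpins. Cxcl1, a neutrophil attractant, was called higher in both hairpins beside Cxcl5 (log2 change 1.23 in shH4 and 1.28 in shH6). It was at 282, 279 and 299 normalized counts in shControl, at 681, 698 and 642.5 in shH4 and at 682, 724 and 689.6 in shH6. Pf4, the platelet factor, was called lower (−0.998 and −1.25) at low levels, with 26.95 ± 2.27 in the controls, 13.4 ± 4.10 with H4 and 10.7 ± 0.784 with H6. Cxcl1 and Cxcl5 carry the ELR motif in front of the paired cysteines, which marks the neutrophil-attracting CXC chemokines. The coding bases around it (GENCODE M21) are shown with the codons of ELR in capitals, and the 2 coding sequences were 49% identical.
Cxcl5: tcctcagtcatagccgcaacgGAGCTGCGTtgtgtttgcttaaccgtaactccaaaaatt
Cxcl1: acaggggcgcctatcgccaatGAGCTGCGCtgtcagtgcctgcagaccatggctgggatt
Of 21 other chemokines, only Ccl2, an attractant of monocytes, was in the table, and it was called higher (0.43 and 0.32). Of 27 chemokine receptors and signalling genes, 2 were in the table and both were called higher. They were the scavenging receptor Ackr3 (0.68 and 0.29) and the small GTPase Rac1 (0.10 and 0.08), a change of the size of the all-gene median. Ackr3 was lower in shH6 than in shH4 (−0.39, limma adjusted p = 0.0412). Cxcr2 was not analysed here.

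Il24 was the single member of the 8 IL-10 family cytokines in the table. Of 31 receptors and JAK-STAT genes of this family, 8 were in the table, and shH4 had 3 called higher and 4 called lower, and shH6 had 4 and 4. After scaling to the same upper quartile, shH6 had 2 and 4. Of the 8, those called lower were Stat2, a signal transducer of interferons (−0.34 and −0.38), Socs2 (−0.30 and −0.58) and Socs3 (−0.33 and −0.20), inhibitors of cytokine signalling, and the kinase Tyk2 (−0.26 and −0.23). Those called higher in both were Pias3 (0.26 and 0.19), Socs5 (0.23 and 0.15) and Ptpn11 (0.18 and 0.11). Socs1 was called higher in shH6 only (0.42). The median log2 change of the 8 genes was −0.047 in shH4 and −0.049 in shH6, against 0.096 and 0.088 over all genes.

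Of 28 prolactin family genes, Prl2c3 and Prl2c2 were in the table. Of 4 receptors of the family, Igf2r was present, the mannose 6-phosphate receptor to which proliferin binds. It was called lower (−0.196 in shH4 and −0.32 in shH6). None of the 10 trophoblast giant cell markers was in the table.

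Other secreted proteins moved in both directions, as the whole table did. Of all its genes, 49.2% were called higher and 46.5% lower in shH4, and 49.1% and 46.9% in shH6. Of 34 other cytokines, 9 were in the table. In each hairpin 3 were called higher and 5 lower, and under scaling to the same upper quartile 2 were higher and 6 lower in shH4. By the smaller of the 2 changes, those that led were Csf3, the growth factor of granulocytes (0.94 and 1.20), Csf1, that of macrophages (0.63 and 0.53), Spp1, osteopontin (−0.89 and −0.59) and Tslp (−0.86 and −0.59). Csf3 was at 34.9, 43.9 and 35.5 normalized counts in shControl, at 76.9, 69.2 and 74.3 in shH4 and at 75.7, 103.9 and 87.3 in shH6, with no overlap between KD and control. Of 53 secreted growth factors, 10 were in the table. In shH4, 6 were called higher and 3 lower, and in shH6, 6 were higher and 4 lower. Angptl4, an inhibitor of lipoprotein lipase, had a larger log2 rise in shH4 than any member (1.98, and 1.65 in shH6). Inhbb, the subunit of activin B (−2.30 and −1.29), Nrg1, a ligand of ERBB receptors (0.86 and 0.82), and the matricellular protein Ccn3 (0.60 and 1.44) followed. The hairpins differed for Ccn3 (0.85 higher in shH6, limma adjusted p = 0.000529), for Inhbb (1.02 higher, limma adjusted p = 0.0241) and for Tgfb3 (−0.39, limma adjusted p = 0.000141).

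**Figure D4:**
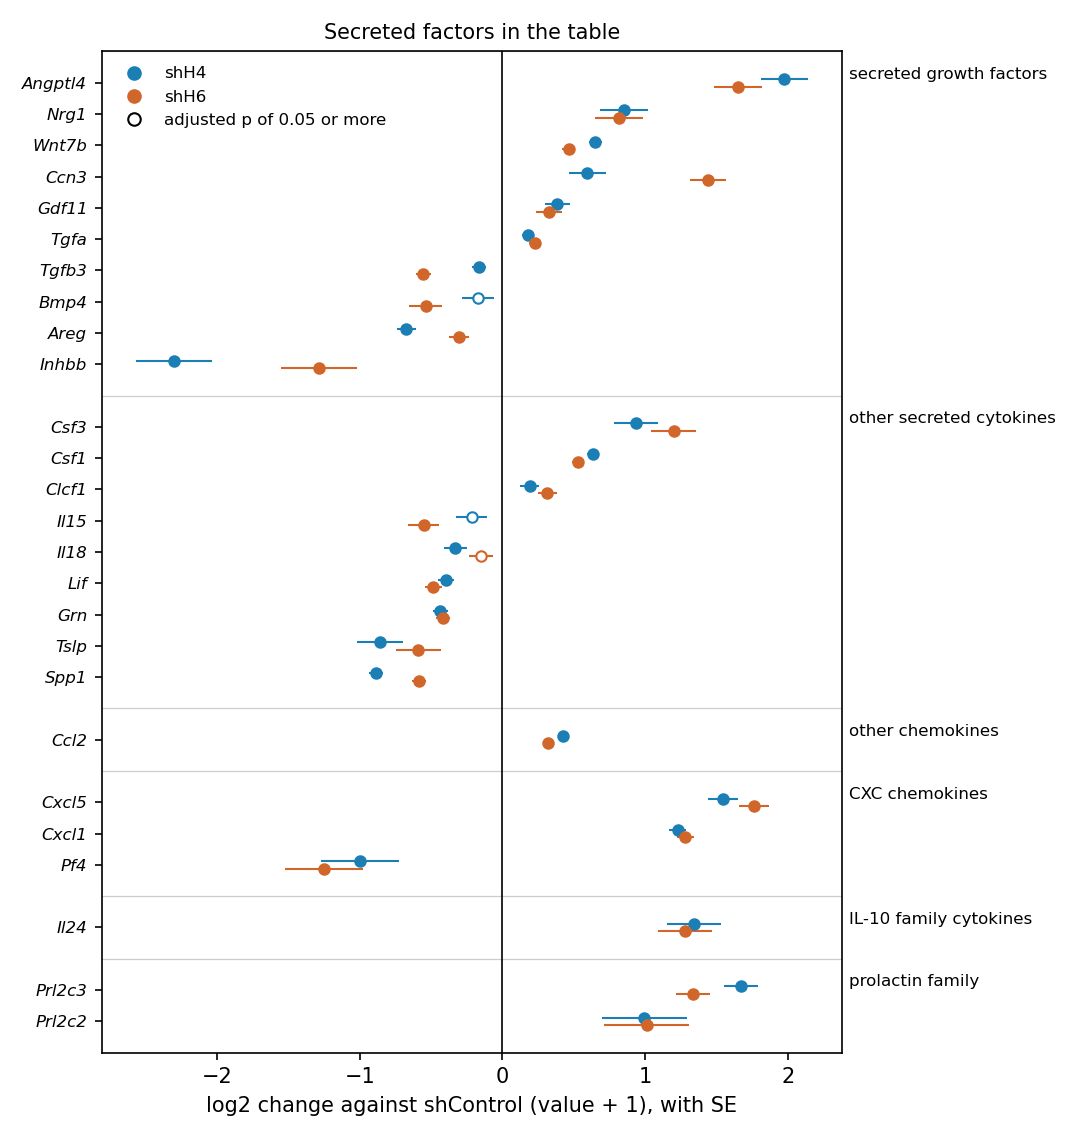
Change in log2(value + 1) against shControl (x axis) with its SE for the secreted factors of 6 lists in the table, with shH4 in blue, shH6 in orange and open symbols where the adjusted p was 0.05 or more. Cxcl5, Cxcl1, Il24, Prl2c3, Angptl4 and Csf3 lie to the right in both hairpins, and Inhbb, Pf4, Spp1 and Tslp lie to the left.

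Regulators that act upstream of such factors were compared as lists. Of 32 NF-kB signalling genes, 12 were in the table. In shH4, 10 were called higher and 1 lower, and in shH6 likewise 10 and 1, with 9 higher in both. Of all genes in the table, 49.2% were called higher in shH4, 49.1% in shH6 and 47.2% in both. The median log2 change of the list was 0.39 in shH4 and 0.55 in shH6, against 0.096 and 0.088 over all genes. With other scalings, 9 to 11 of the 12 were called higher. By the smaller of their changes in the 2 hairpins, the genes that led were Nfkbie (1.19 and 1.36) and Nfkbia (0.65 and 0.65), inhibitors of NF-kB that are also its targets, the adaptor Traf3 (0.71 and 0.65) and the subunit Relb (0.59 and 0.69). Nfkbia was at 794, 843 and 847 normalized counts in shControl, at 1316, 1351 and 1227 in shH4 and at 1320, 1303 and 1269 in shH6. The 2 hairpins overlapped for Nfkbia, and both lay above shControl. Bcl3, a coactivator of NF-kB, had 0.55 in shH4 and 1.12 in shH6. Ikbke, a kinase of the pathway, was called lower (−0.23 and −0.26).

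Of 16 AP-1 factors, 9 were in the table, and 3 were called higher and 6 lower in each hairpin. Of all genes in the table, 49.2% were called higher and 46.5% lower in shH4, and 49.1% and 46.9% in shH6. Atf3 (−1.34 and −1.43) and Fos (−0.88 and −0.77), both immediate early genes, were called lower, as was Jdp2 (−0.37 and −0.32). Fosl1 was called higher (0.25 and 0.40). Of 22 MAPK feedback genes, which report on signalling by growth factors, 6 were in the table. Of these, 3 were called higher and 2 lower with H4, and 2 and 2 with H6. After scaling to the same column total, 4 were called higher with H6. The phosphatases Dusp1 (−0.32 and −0.35) and Dusp4 (−0.28 and −0.18) were called lower in both, and the factor Etv4 was called higher in both (0.28 and 0.28). Dusp5 was higher in shH6 than in shH4 (0.35, limma adjusted p = 0.00559). Over all 12 pathway lists, 64 genes were in the table and 8 of them differed between the hairpins, against 8.26% of all genes, and 5 of the 8 were secreted growth factors.

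**Figure D5:**
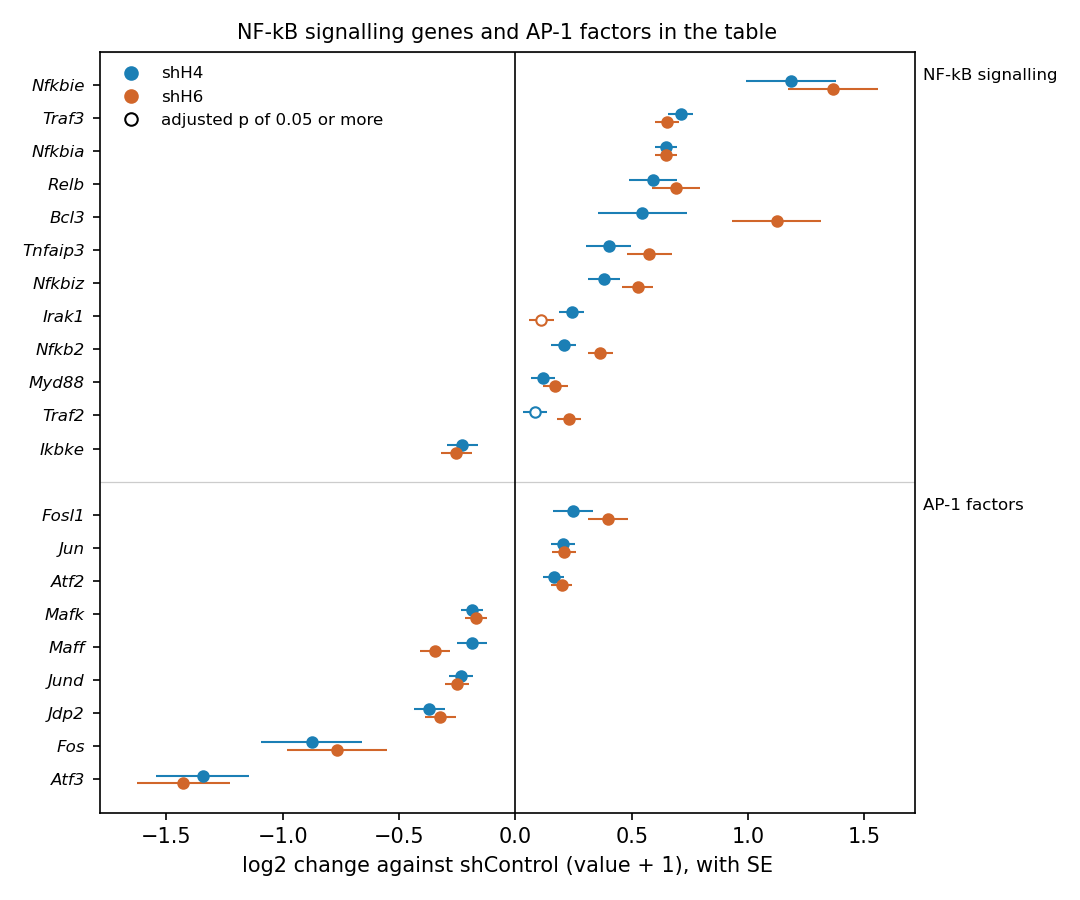
Change in log2(value + 1) against shControl (x axis) with its SE for the 12 NF-kB signalling genes and the 9 AP-1 factors in the table, with shH4 in blue, shH6 in orange and open symbols where the adjusted p was 0.05 or more. All NF-kB signalling genes shown except Ikbke lie to the right of 0, and the AP-1 factors are split, with 3 to the right and 6 to the left.

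The RefSeq promoter table (GRCm38.p6, 250 bases before to 50 bases after a gene's start) held Prl2c3, Cxcl1 and Nfkbia, but no sequence was read for Cxcl5, Il24 or Prl2c2. The promoter of Prl2c3 is at chr13:12800030-12800329 on the minus strand, and those of Cxcl1 and Nfkbia are at chr5:90890995-90891294 on the plus strand and chr12:55492598-55492897 on the minus strand. They are printed because NF-kB and AP-1 are known regulators of genes of these classes. Capitals mark matches to the AP-1 motif TGANTCA, the TATA motif TATANAA, or the NF-kB consensus, searched on both strands.
Prl2c3: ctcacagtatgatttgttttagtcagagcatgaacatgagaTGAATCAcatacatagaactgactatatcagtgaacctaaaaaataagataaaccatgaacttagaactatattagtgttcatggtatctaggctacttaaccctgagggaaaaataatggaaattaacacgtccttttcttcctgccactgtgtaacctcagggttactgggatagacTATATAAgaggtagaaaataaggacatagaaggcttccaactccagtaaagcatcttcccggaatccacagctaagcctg
Cxcl1: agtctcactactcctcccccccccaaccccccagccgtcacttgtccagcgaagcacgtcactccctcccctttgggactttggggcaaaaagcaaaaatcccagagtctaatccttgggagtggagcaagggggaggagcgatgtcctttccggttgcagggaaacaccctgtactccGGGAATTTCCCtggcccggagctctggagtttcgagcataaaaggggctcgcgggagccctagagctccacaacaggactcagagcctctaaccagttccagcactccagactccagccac
Nfkbia: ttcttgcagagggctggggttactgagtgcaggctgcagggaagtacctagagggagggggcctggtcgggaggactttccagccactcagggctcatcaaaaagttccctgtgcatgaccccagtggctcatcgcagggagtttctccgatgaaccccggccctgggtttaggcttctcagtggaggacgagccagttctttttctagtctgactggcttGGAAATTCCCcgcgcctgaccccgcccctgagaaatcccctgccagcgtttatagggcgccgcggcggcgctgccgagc
The Prl2c3 promoter held 1 AP-1 match, whose first base is at −209 from the gene start, and 1 TATA match at −30, with 0 NF-kB matches. The Cxcl1 promoter held 2 overlapping NF-kB matches, at −71 and −70, and the Nfkbia promoter held 1, at −29. Over all 32851 promoters of the table, 7.81% held the AP-1 motif, 11.3% the TATA motif and 4.51% the NF-kB consensus. The promoter of Prl2c5 was 95.35% identical to that of Prl2c3 and held the TATA motif but no AP-1 match. A match shows only that these letters are in the window.

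AU-rich elements were counted in the 3′ UTRs. The pentamer ATTTA, which is known from messages of short life, occurred 5 times in the 1111 bases of the Cxcl5 3′ UTR, 4 times in the 381 bases of Il24 and 1 time in the 115 bases of Prl2c3. That is 4.50, 10.5 and 8.70 per kb, against a median of 1.36 per kb over the 4456 listed genes with a 3′ UTR of at least 100 bases. At least as many per kb were found in 8.17% of these genes for Cxcl5, in 0.516% for Il24 and in 1.03% for Prl2c3, whose figure rests on 1 pentamer. Cxcl1 had 7 pentamers in 592 bases. The stretch of 30 bases that holds the most of them is shown for each, with the pentamers in capitals.
Cxcl5: agcttcctgctcatctcacaagtgtATTTA
Il24: actgacccacaaagtagatttgcatATTTA
Prl2c3: tatcttttgaatttgttgttgactcATTTA
Cxcl1: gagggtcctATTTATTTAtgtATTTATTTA
No such stretch held more than 1 pentamer in a member, and that of Cxcl1 held 4. The longer motif TTATTTATT was in the 3′ UTR of Cxcl1 and of 7.59% of the genes, and in that of 0 members.

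RESF1 has been linked to G quadruplexes, structures formed by runs of guanine, so such motifs were counted in the transcripts. A motif was 4 runs of at least 2 guanines with loops of up to 12 bases, within 45 bases. Cxcl5 held 0 on the sense strand and 4 on the antisense strand, Il24 held 3 and 4, and Prl2c3 held 1 and 0. The median of 4661 protein-coding transcripts was 14 on each strand, and 98.9% held motifs on both. The member transcripts are short, at 1575 bases (Cxcl5), 1182 (Il24) and 857 (Prl2c3) against a median of 3222. They are also poor in G and C, at 37.8%, 48.05% and 40.4% against a median of 50.3%.

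The 3 genes lie on different chromosomes, Cxcl5 on 5, Il24 on 1 and Prl2c3 on 13. Of the protein-coding genes that start within 500 kb of Cxcl5, 4 of 17 were in the table. Cxcl1 was called higher with it, Pf4 and the EGF receptor ligand Areg (−0.67 and −0.30) were called lower, and Ankrd17 was higher by 0.13 and 0.12. Areg was 0.37 higher in shH6 than in shH4 (limma adjusted p = 0.0026). Around Il24, 5 of 19 were in the table. The kinase Mapkapk2 was called higher (0.17 and 0.17), whereas Dyrk3 (−0.24 and −0.28), Eif2d (−0.51 and −0.56) and Ikbke were called lower in both. Rassf5 was called lower in shH6 (−0.40) and had −0.19 in shH4 (limma adjusted p = 0.0501). The cytokine genes next to Il24, Il10, Il19 and Il20, were not analysed here. Around Prl2c3, 4 of 7 were in the table. Prl2c2 (0.99 and 1.012) and Heatr1, a factor of ribosome synthesis (0.28 and 0.28), were called higher, and Lgals8 (−0.27 and −0.34) and Ero1lb (−0.17 and −0.23) were called lower.

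The genes whose log2 values followed a member most closely were taken over the 9 libraries, among genes with a mean of at least 20 normalized counts. For Cxcl5 these were Lin9 (Pearson r = 0.994), the splicing factor Srsf7 (0.993) and the ribonuclease Dis3 (0.993). For Il24 they were Exosc1 (0.988) and Thg1l (0.98). For Prl2c3 they were Ywhah (0.991), Ndufaf4 (0.991) and the cohesin regulator Pds5a (0.99). These 8 genes had smaller log2 changes than the members, from 0.19 to 0.61. Among the members r was 0.931 for Cxcl5 and Prl2c3, 0.914 for Il24 and Prl2c3, and 0.883 for Cxcl5 and Il24. These correlations rest mainly on the step between shControl and KD, which selected the table, and the points share libraries and size factors.

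Markers of other cell types were examined, although the samples were dishes of a tumor cell line and not tissue. In bulk samples, fewer cells of a type and less RNA per cell cannot be told apart. Of 62 such markers 5 were in the table, and none of the neutrophil or lymphocyte markers was. The summed level of the 2 macrophage markers listed (of 14), Cd68 and Cd14, was 1074 to 1126 normalized counts in the controls, 600.2 to 656 with H4 and 545 to 603 with H6. The 2 endothelial markers listed (of 8), Cdh5 and Pecam1, summed to 20.2 to 30.8 in the controls, 173.5 to 208 with H4 and 26.01 to 31.2 with H6. Pdgfra, the fibroblast marker listed (of 10), was at 69.7 to 107.9, 119 to 162 and 128 to 157 in the same order, so it was higher in both KD groups, as the members were. The other markers, defining ones among them, were not analysed here. The part of these markers in the members' values was not tested. Of 15 mammary epithelial markers, Krt8, Krt18 and Erbb2 were in the table. Krt8 was at 15450 ± 636 in the controls, 12980 ± 525 with H4 and 14630 ± 861 with H6. Krt8 and Krt18 were called lower in shH4 (−0.25 and −0.32), and had −0.079 and −0.069 in shH6, where neither was called. Erbb2 was called higher in both, with 683 ± 97.7 in the controls, 869 ± 81.3 with H4 and 854 ± 64.5 with H6 (SD, n = 3 each).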

How the data were processed

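Total RNA of mouse 6DT1 cells was sequenced by the authors with a TruSeq Stranded Total RNA kit. The submitters' processing notes name Partek, STAR 2.7.8a, DESeq2 and the mm39 build. The use of strand in counting was not given in the sources used here. The authors deposited a signal per gene: reads after division by the size factor of the library. This was read from the values, since 75.0% of those below 150 were whole reads within 0.02 reads. This was too few to recover whole reads, so no count-based test was run. All 9 value columns matched a sample. The listed genes held an estimated 10.5 to 19.9 M reads per library, and intervals cover counting error only.

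Log2(value + 1) was fitted for all 5301 genes and 9 libraries with limma 3.58.1 in R 4.3.3, with 1 mean per group, a trend in the empirical Bayes step and Benjamini-Hochberg adjustment over all genes. Changes on this scale understate those of low genes. The code was tested on simulated data. Ratios were compared by two-sided exact permutation tests with SciPy 1.17.1. GENCODE M21 gave symbols for 5258 genes, transcripts and neighbours. It describes GRCm38, so the only coordinates given are those of RefSeq promoters. The longest coding transcript was used per gene, and coding sequences were aligned with Biopython.

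The members, gene lists and tests were chosen with earlier results of these data known. Genes named were the members, Resf1, the 3 genes most correlated with each member (1 of them is not reported here), up to 4 genes per list that were called in both hairpins and led by the smaller change, up to 3 per list that differed between the hairpins, neighbours within 500 kb and adjacent ranks. Bcl3, Wnt7b, Prl2c2, Pias3, Socs5, Ptpn11, Socs1, and Cxcl1, Csf3 and Nfkbia by library, were shown after their values were seen. Alternatives were pseudocounts of 0.5 and 10, only genes with at least 10 normalized counts throughout, scaling to the same upper quartile or column total, fits of only the groups compared, library weights, the replicate number as a block and leaving out each library. Summing Prl2c3 and Prl2c2 was added after seeing the data.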

Additional observations from a re-analysis of the deposited data

Results flagged for a closer look

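Among the pathway list genes and neighbours of the members, the genes below differed between the hairpins by a direct test in limma. The values are log2 differences of shH6 from shH4. Ccn3 (0.845), Inhbb (1.02), Areg (0.37), Dusp5 (0.351) and Spp1 (0.302) were higher in shH6. Ackr3 (−0.388), Tgfb3 (−0.391) and Wnt7b (−0.188) were lower in shH6. The limma adjusted p-values ranged from 0.000141 for Tgfb3 to 0.0412 for Ackr3. For Inhbb, Areg, Spp1, Ackr3 and Wnt7b the level in shH6 lay between those of shControl and shH4. For Ccn3, Tgfb3 and Dusp5 shH6 was farther from shControl than shH4 was.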

How the results depend on the processing

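The 23 values followed (the members' changes, the list counts and the count of genes that differed between the hairpins) were recomputed under each alternative, and those of Prl2c3 also with Prl2c2 added. Of 394 values under alternatives, 386 were rated as unchanged, and 0 called values changed sign. For the members' differences between the hairpins, this meant that the threshold was not crossed. Their changes against shControl moved by less than the within-group SD on the log2 scale (0.132 for Cxcl5, 0.319 for Il24 and 0.198 for Prl2c3). Counts moved by at most 1.5 times (among them the MAPK feedback genes called in shH6, from 4 to 6 under column total scaling). The 386 include the rise over shControl, which chose the members, and list counts in a table selected on such changes. They are therefore a description and not a test of stability. The other 8 all concern the direct comparison of shH6 and shH4. Prl2c3, at −0.34 with an adjusted p of 0.0992, passed the threshold with library weights (−0.42) and without shH4 replicate 3. When 1 library was left out the Prl2c3 difference ranged from −0.48 to −0.19, that of Cxcl5 from 0.17 to 0.26 and that of Il24 from −0.16 to 0.069, with a positive sign only without shH4 replicate 1. The number of genes that differed was 438, with 206 higher and 232 lower in shH6. It was 684 with library weights and 287 to 422 when 1 library was left out, with 290 without shH4 replicate 1 and 287 without shH6 replicate 1. Scaling to the same column total gave 263 higher and 191 lower. The number of pathway list genes that differed was 8, 14 with library weights, and 5 to 9 when 1 library was left out, with 5 without shH4 replicate 2 or shH6 replicate 2. The cause was not tested. With the replicate number as a block, 405 genes differed between the hairpins, and the members were at 0.22 (Cxcl5), −0.064 (Il24) and −0.34 (Prl2c3, adjusted p = 0.112). Deviations of same-numbered libraries correlated at −0.155 to 0.108, so the numbers were not taken as pairs, and no call of a member changed under the block. Adding Prl2c2 to Prl2c3, an alternative chosen after seeing the data, gave −0.31 (adjusted p = 0.138). The planned DESeq2 alternative was not run, since it needs raw counts. Il24 had as few as 32 reads in a library. The split of reads between Prl2c3 and Prl2c2 is uncertain.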
